A study of Mus musculus with 17 samples.

Results

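The subject is 9 enzymes that move single carbon atoms on folate and spend them on nucleotide synthesis: Shmt1, Shmt2, Mthfd1, Mthfd1l, Mthfd2, Tyms, Gart, Paics and Atic. They were taken by symbol from a table of raw read counts of 35321 genes, where all 9 were found, and all 9 were among the 14920 genes with enough counts to be tested. The table holds 17 RNA libraries made from polyA RNA of HSPC (hematopoietic stem and progenitor cells, which form blood in the marrow) sorted from wild-type C57BL/6J mice. The mice received an intraperitoneal injection and marrow was harvested 24 or 72 h later. The groups were phosphate buffered saline (PBS, titled day 0, n = 5), lipopolysaccharide (LPS, an inflammatory part of bacterial envelopes) for 24 h (n = 3) or 72 h (n = 3), and LPS plus anti-IL-10R, an antibody blocking the receptor of the anti-inflammatory cytokine interleukin-10, for 24 h (n = 3) or 72 h (n = 3). No group received the antibody without LPS, and no PBS library is titled with a harvest at 24 or 72 h, so injection effects of the antibody alone are not measured here. The design text gives 5 µg LPS and 100 µg antibody, whereas the sample labels give 5 mg and 100 mg, and these amounts were not reconciled. Age, sex and the number of mice behind a library are not given in the sources used here, so the p-values below measure the spread between libraries, which may be partly technical.

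Folate carries 1-carbon units that come mainly from serine. In mitochondria SHMT2 takes the carbon from serine, MTHFD2 oxidizes the folate-bound unit and MTHFD1L releases it as formate. In the cytosol MTHFD1 loads formate back onto folate, SHMT1 exchanges units with serine and glycine, thymidylate synthase (TYMS) uses a unit to make thymidylate for DNA, and GART and ATIC insert units into the purine ring. PAICS catalyses purine ring steps between GART and ATIC that use carbon dioxide and aspartate in place of a folate unit. Dividing blood progenitors need both products for DNA and RNA, and antifolate drugs act on this pathway.

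The main pattern was a rise at 24 h after LPS, a fall by 72 h, and a level at 72 h that was higher with the antibody and LPS than with LPS alone. It was shared by Shmt1, Shmt2, Mthfd1, Mthfd1l, Mthfd2 and Gart, in part by Atic and Tyms, and not by Paics. Against PBS, the 72 h level with the antibody passed the test for Shmt2, Mthfd1l, Mthfd2 and Gart and not for Shmt1 or Mthfd1. Levels are counts per 1000000 counts of a library (CPM), scaled for library composition, and changes are log2 differences between groups from 1 fit of all 17 libraries (edgeR's quasi-likelihood test). A change was called where its p, adjusted by the Benjamini-Hochberg method over all 14920 genes, was below 0.05.

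The libraries held 10516722 to 16006001 counts in genes. Library 1 of LPS 24 h stood apart with a scaling factor of 0.7985, the others lying between 0.947 and 1.119, and with 16431 genes detected. Library names were styled differently for PBS, for the 24 h libraries numbered 1, and, in brackets, for the other LPS libraries. No label calls these batches, and for PBS the style cannot be told apart from the group. Kit and Ly6a (Sca-1), which define mouse HSPC gates, were present, with Kit at 399 ± 60.8 CPM and Ly6a at 61.7 ± 24.3 CPM in PBS (SD, n = 5). In bulk RNA, fewer cells of one type and less RNA per cell cannot be told apart.

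Because members moved together, the 250 bases before each RefSeq gene start (build GRCm38.p6, matched for 9 of 9 members) were searched on both strands for 5 motifs of factors known at such genes. The E-box CACGTG, which Myc and Max bind, was found in 3 members (Atic, Tyms and Paics) and in 6.02% of 32851 promoter windows of the same length. CCAAT, the core of the NF-Y site, was found in 6 members, and 33.8% of all windows hold it. The palindrome bound by NRF1, whose letters are the capitals in the Shmt2 sequence, was found in Shmt2 alone, against 0.782% of windows. Neither TGATGNAA, a C/EBP-ATF composite that Atf4 can bind (3.45% of windows), nor the E2F letters TTTGGCGC or TTTCCCGC (1.3%) lay in these windows of any member. The promoters of 5 members are shown, 5′ to 3′ on the gene's strand, for the members whose windows hold an E-box, the palindrome, or more than 1 CCAAT. Capitals mark the E-box in Atic, Tyms and Paics, the 3 CCAAT sites (1 of them reversed, as ATTGG) in Mthfd2, and the NRF1 palindrome in Shmt2.
Atic (chr1:71556906-71557155, plus strand): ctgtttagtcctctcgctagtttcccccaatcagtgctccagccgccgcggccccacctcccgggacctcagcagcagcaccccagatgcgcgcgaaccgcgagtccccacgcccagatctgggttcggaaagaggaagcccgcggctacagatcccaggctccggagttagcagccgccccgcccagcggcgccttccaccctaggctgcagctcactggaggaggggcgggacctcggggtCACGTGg
Tyms (chr5:30073626-30073875, minus strand): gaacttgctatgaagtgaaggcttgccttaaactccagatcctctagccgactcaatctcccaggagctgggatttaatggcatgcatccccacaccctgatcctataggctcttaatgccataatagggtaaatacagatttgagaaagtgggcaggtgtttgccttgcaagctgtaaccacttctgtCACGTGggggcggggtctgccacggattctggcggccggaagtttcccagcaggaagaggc
Paics (chr5:76951052-76951301, plus strand): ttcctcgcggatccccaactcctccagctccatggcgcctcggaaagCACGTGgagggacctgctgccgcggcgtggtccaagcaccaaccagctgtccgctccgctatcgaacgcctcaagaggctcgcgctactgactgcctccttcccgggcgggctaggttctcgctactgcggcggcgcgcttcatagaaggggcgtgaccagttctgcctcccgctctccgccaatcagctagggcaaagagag
Mthfd2 (chr6:83317605-83317854, minus strand): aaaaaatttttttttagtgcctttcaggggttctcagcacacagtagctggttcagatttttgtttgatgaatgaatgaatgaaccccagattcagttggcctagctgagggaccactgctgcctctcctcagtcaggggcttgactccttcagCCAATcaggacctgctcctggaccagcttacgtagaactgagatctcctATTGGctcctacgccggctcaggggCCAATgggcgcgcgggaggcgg
Shmt2 (chr10:127522445-127522694, minus strand): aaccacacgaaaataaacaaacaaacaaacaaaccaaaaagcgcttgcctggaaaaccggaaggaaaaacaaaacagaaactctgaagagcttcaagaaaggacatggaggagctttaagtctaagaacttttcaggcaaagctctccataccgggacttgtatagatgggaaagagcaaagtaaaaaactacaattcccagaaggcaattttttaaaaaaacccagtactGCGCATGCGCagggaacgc
The E-box of Atic ends 2 bases before the RefSeq start, that of Tyms 56 bases and that of Paics 198 bases. A match describes letters only. Of the 3 members with an E-box, Atic rose at LPS 24 h by 0.88 and Tyms by 0.51, and Paics was at 0.18 and not called. The part of these sites in the changes was not tested.

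Serine hydroxymethyltransferases come first. Shmt2 (GRCm38, chr10:127517123-127522444, minus strand), the mitochondrial enzyme, was at 266, 192, 186, 278 and 219 CPM in the 5 PBS libraries, at 535, 398 and 432 CPM at LPS 24 h and at 199, 217 and 187 CPM at LPS 72 h. With the antibody it was at 329, 450 and 418 CPM at 24 h and at 288, 346 and 443 CPM at 72 h. All LPS 24 h, and all antibody-treated, libraries therefore lay above the highest PBS library, while the LPS 72 h libraries lay within the PBS range. Shmt2 rose at LPS 24 h by 1.00 on the log2 scale (SE 0.168, adjusted p = 0.000743) and was higher with than without the antibody at 72 h by 0.84 (SE 0.193, adjusted p = 0.0108). The latter call was lost without LPS 72 h library 1, where the adjusted p was 0.0506.

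Shmt1 (chr11:60788104-60811718, minus strand), the cytosolic enzyme, was less abundant. It was at 84, 68.4, 69.5, 77.1 and 93.6 CPM in PBS and at 154, 121 and 142 CPM at LPS 24 h, again with no overlap. At 72 h it was at 63.4, 81.1 and 64.1 CPM after LPS and at 92.3, 136 and 118 CPM after LPS with antibody, also without overlap. The antibody groups were spread: the 24 h libraries were at 71.2, 139 and 111 CPM, so that library 1 lay within the PBS range. Shmt1 rose at LPS 24 h by 0.83 (SE 0.185, adjusted p = 0.00341). The antibody difference at 72 h was 0.73 (SE 0.212, adjusted p = 0.0312), and it missed the threshold when any of 4 of the 6 libraries was left out (LPS 72 h libraries 1 and 3, antibody 72 h libraries 2 and 3; adjusted p up to 0.123). The changes of Shmt1 from PBS in the antibody groups, 0.45 at 24 h (adjusted p = 0.09) and 0.55 at 72 h (adjusted p = 0.0573), did not pass.

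The folate interconverting enzymes followed. Mthfd2 (chr6:83305691-83325908, minus strand), the mitochondrial dehydrogenase known for low levels in many resting adult tissues and high levels in proliferating cells, was at 48.4, 34.6, 24.9, 35.6 and 29.8 CPM in PBS. At 24 h it was at 121, 75.9 and 84.1 CPM after LPS and at 85.8, 97.7 and 64.6 CPM with the antibody, every library above the PBS range. At 72 h it was at 27.7, 32.1 and 35 CPM after LPS and at 77.5, 63.2 and 110 CPM with the antibody. The lowest antibody library at 72 h was thus above the highest LPS library. Mthfd2 had the largest log2 change of the 9 in each of the comparisons in which any member was called. It rose by 1.43 at LPS 24 h (95% interval 0.97 to 1.9, a fold of 2.7, adjusted p = 0.000532) and fell by 1.57 between 24 and 72 h after LPS (adjusted p = 0.000568). With the antibody it was higher than with LPS alone at 72 h by 1.41 (95% interval 0.86 to 1.95, adjusted p = 0.00357).

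Mthfd1l (chr10:3973118-4167081, plus strand), which makes formate in mitochondria, had the tightest groups of the mitochondrial members. It was at 128, 96.7, 113, 138 and 112 CPM in PBS, 218, 197 and 184 CPM at LPS 24 h, and 90, 101 and 94.7 CPM at LPS 72 h. The antibody libraries were at 154, 190 and 178 CPM at 24 h and at 161, 185 and 187 CPM at 72 h, all above the PBS range. Mthfd1l rose at LPS 24 h by 0.76 (SE 0.117, adjusted p = 0.000518). Its antibody difference at 72 h, 0.90 (SE 0.134, adjusted p = 0.00133), had the lowest adjusted p of the 9 members in that comparison.

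Mthfd1 (chr12:76255298-76319803, plus strand), the cytosolic trifunctional enzyme, was at 192, 133, 159, 177 and 163 CPM in PBS and at 339, 267 and 303 CPM at LPS 24 h. At LPS 72 h it was at 115, 117 and 119 CPM, each below the lowest PBS library. With the antibody it was at 246, 302 and 211 CPM at 24 h and at 171, 200 and 221 CPM at 72 h, and the 72 h values overlapped PBS. Mthfd1 rose by 0.88 at LPS 24 h (SE 0.136, adjusted p = 0.000543), was 0.75 higher with the antibody than without at 72 h (SE 0.156, adjusted p = 0.00639), and did not pass against PBS there (0.26, adjusted p = 0.203). Its difference between LPS 72 h and PBS, -0.49 (95% interval -0.79 to -0.19), did not pass (adjusted p = 0.219), although limma's voom with sample quality weights called it (adjusted p = 0.0103). Voom called many more genes in that comparison than edgeR did, as given below.

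Tyms (chr5:30058202-30073617, minus strand), the thymidylate maker, had the narrowest PBS range: 80.7, 81.9, 77.3, 81.8 and 85.5 CPM. At LPS 24 h it was at 149, 103 and 97.5 CPM, all above PBS, with library 1 far above the other 2. It was at 84.9, 92 and 123 CPM with the antibody at 24 h, at 76.5, 93.9 and 86 CPM at LPS 72 h, and at 66.9, 77.3 and 101 CPM with the antibody at 72 h, groups that overlapped PBS. Tyms rose at LPS 24 h by 0.51 (SE 0.161, adjusted p = 0.0203), the smallest called rise of a member. Without LPS 24 h library 1 the change was 0.31 (adjusted p = 0.164), and in a fit with replicate number as the block it was 0.55 (adjusted p = 0.0642). The call was also lost with upper-quartile scaling factors (0.38, adjusted p = 0.064) and among the upper part of genes by mean expression (0.35, adjusted p = 0.0657). The antibody difference at 72 h was -0.06 (95% interval -0.45 to 0.33).

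The purine enzymes differed among themselves. Gart (chr16:91621186-91646952, minus strand), which carries 3 steps of ring synthesis on 1 protein, was at 299, 209, 206, 252 and 247 CPM in PBS and at 488, 468 and 501 CPM at LPS 24 h. At LPS 72 h it was at 181, 199 and 205 CPM, just below the lowest PBS library. With the antibody it was at 299, 531 and 398 CPM at 24 h and at 326, 398 and 416 CPM at 72 h. Gart rose by 1.00 at LPS 24 h (SE 0.16, adjusted p = 0.000597) and was 0.96 higher with than without the antibody at 72 h (SE 0.185, adjusted p = 0.00442).

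Atic (chr1:71557150-71579631, plus strand), which closes the purine ring, was at 243, 172, 184, 239 and 207 CPM in PBS, 441, 358 and 351 CPM at LPS 24 h and 178, 183 and 188 CPM at LPS 72 h. With the antibody it was at 239, 396 and 323 CPM at 24 h and at 193, 267 and 326 CPM at 72 h. The LPS 24 h libraries were all above PBS, and the antibody libraries at 72 h were all above those of LPS alone but overlapped PBS. Atic rose by 0.88 at LPS 24 h (SE 0.178, adjusted p = 0.00196). Its antibody difference at 72 h was 0.52 (95% interval 0.09 to 0.95) and did not pass (adjusted p = 0.092).

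Paics (chr5:76951307-76967509, plus strand) was the most abundant member and varied little. It was at 425, 436, 398, 456 and 498 CPM in PBS, 510, 511 and 482 CPM at LPS 24 h, 423, 448 and 615 CPM with the antibody at 24 h, 472, 536 and 462 CPM at LPS 72 h, and 454, 485 and 585 CPM with the antibody at 72 h. All 4 LPS groups overlapped PBS. The change at LPS 24 h was 0.18 (95% interval -0.1 to 0.45, adjusted p = 0.295) and the antibody difference at 72 h was 0.05 (95% interval -0.26 to 0.36, adjusted p = 0.836), intervals whose upper bounds lie below the estimates for Gart.

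**Figure D1:**
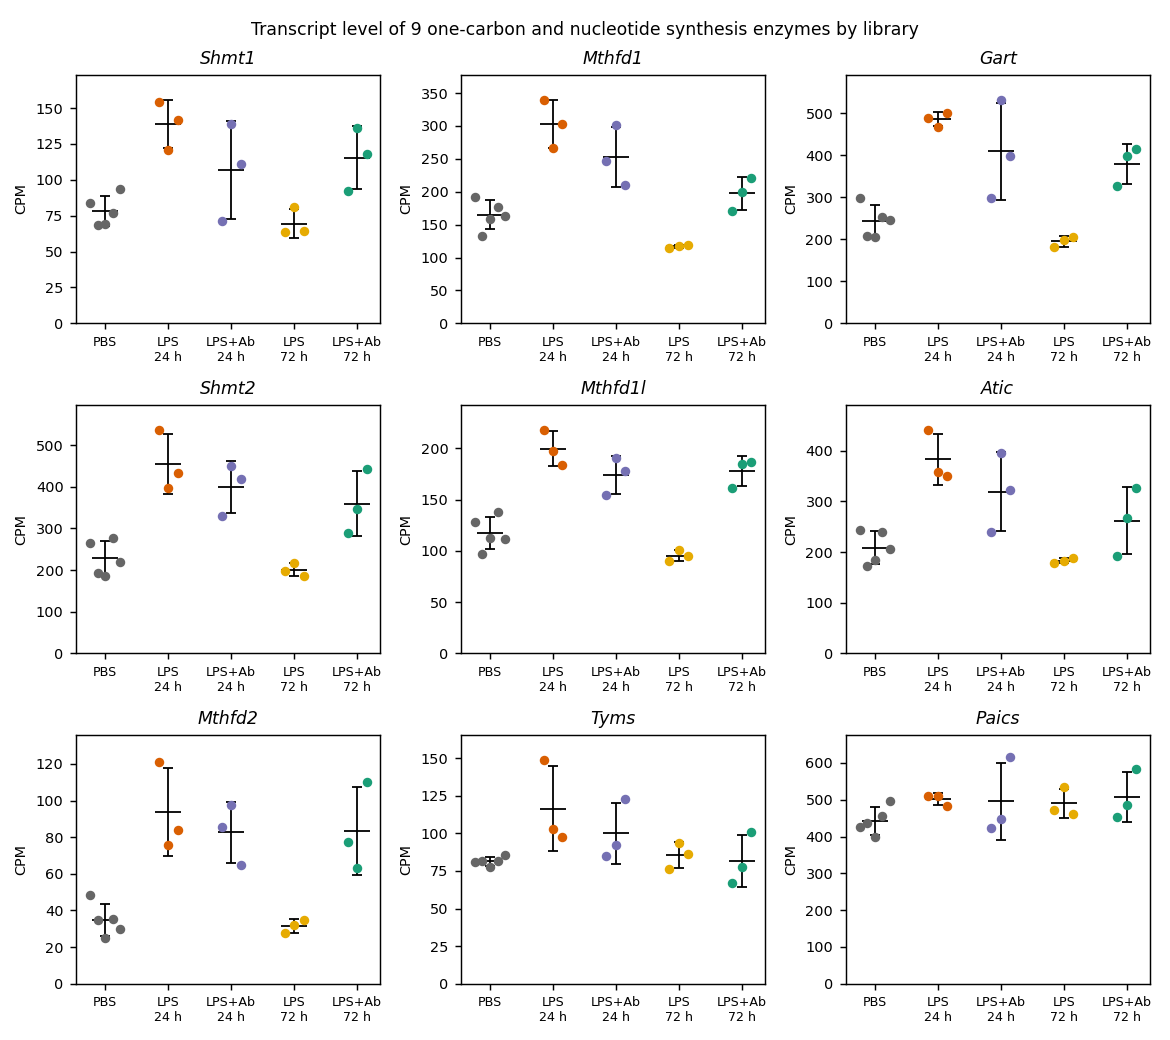
Level of each of the 9 enzymes in each library (CPM, linear axis from 0), by group, where LPS+Ab is LPS with anti-IL-10R. Points are libraries, the horizontal line is the group mean and the bar is 1 SD (n = 5 for PBS, 3 for the others); Mthfd2 lies at 75.9 to 121 CPM at LPS 24 h and back at 27.7 to 35 CPM at LPS 72 h, while Paics stays between 398 and 615 CPM in all 17 libraries.

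Paics starts next to Ppat, whose enzyme commits the pathway to purines, in head-to-head orientation, and 272 bases of annotated exon overlap on opposite strands. Ppat was chosen for comparison after its values were seen, so its ratio to Paics is a description. Ppat was at 91.8 ± 9.05 CPM in PBS (SD, n = 5), 159 ± 0.293 CPM at LPS 24 h (SD, n = 3), 74.5 ± 3.04 CPM at LPS 72 h (SD, n = 3) and 137 ± 6.34 CPM with the antibody at 72 h (SD, n = 3). The ratio of Ppat to Paics counts was 0.199 to 0.236 in PBS, 0.311 to 0.33 at LPS 24 h, 0.145 to 0.159 at LPS 72 h and 0.245 to 0.301 with the antibody at 72 h. These 4 ranges did not overlap, while the antibody group at 24 h spanned 0.216 to 0.391. The neighbouring genes thus differed in how far they moved, Ppat following the other members and Paics not.

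As a group at LPS 24 h, 8 of 9 members rose and none fell. The background was high: 37.6% of all tested genes were called, and 19.1% of all tested genes were called higher. The members' median change was 0.88, and that of all genes was -0.03. For the same 8 members all 3 LPS libraries lay above all 5 PBS libraries, as did 20.6% of tested genes. With the antibody at 24 h, 6 of 9 rose (Shmt2, Mthfd1, Mthfd1l, Mthfd2, Gart and Atic; 24.2% of all tested genes called, 11.7% of all called higher), with a median of 0.61 against 0 for all genes, and 5 (those without Atic) lay wholly above PBS, as did 14.2% of genes. Of these 5, Gart cleared PBS by less than the rounding, its lowest antibody library and its highest PBS library both being at 299 CPM. The count of called members was 3 without antibody 24 h library 2. Both comparisons use the same PBS libraries.

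At 72 h after LPS alone 0 of 9 members differed from PBS by edgeR's quasi-likelihood test, in a comparison that called 0.0201% of genes (3 of 14920). At an unadjusted p below 0.05 there were 2 members, Mthfd1 and Mthfd1l, and 1702 genes. DESeq2 called 0 members and voom 1, and both called many more genes in all than edgeR, as given below. With voom, 1 of 9 members is not above the share of all genes called. The members' median was -0.18, that of all genes -0.03, and Mthfd1 and Gart lay wholly below PBS, as did 7.01% of genes. Between 24 and 72 h after LPS, 7 of 9 fell (31.1% of all tested genes called, 16.4% of all called lower), with a median of -1.07 against 0.02. For 8 members all 72 h libraries lay below all 24 h libraries, as for 23% of genes. The falls ran from 1.00 for Shmt1 to 1.57 for Mthfd2, and the adjusted p was 0.000149 for Mthfd1, which fell by 1.37. Tyms (-0.44, adjusted p = 0.0751) and Paics (-0.03, adjusted p = 0.892) did not pass. With both 24 h libraries numbered 1 left out, 7 members were again called.

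With the antibody at 72 h, 4 of 9 members were above PBS: Mthfd2 by 1.27 (adjusted p = 0.00634), Gart by 0.65 (adjusted p = 0.0204), Shmt2 by 0.65 (adjusted p = 0.0229) and Mthfd1l by 0.60 (adjusted p = 0.00856). In this comparison 13.2% of all tested genes were called, 6.81% of all as higher, and the median was 0.55 for members and 0 for all genes. The same 4 lay wholly above PBS, as did 13.4% of genes. The count was 2 without PBS library 2, and also 2 without antibody 72 h library 3. From 24 to 72 h with the antibody 0 of 9 members and 0 of 14920 genes were called by edgeR, against 1 member (Mthfd1, -0.36) and 635 genes at an unadjusted p below 0.05. DESeq2 called 2 genes and voom 0, none of them members.

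**Figure D2:**
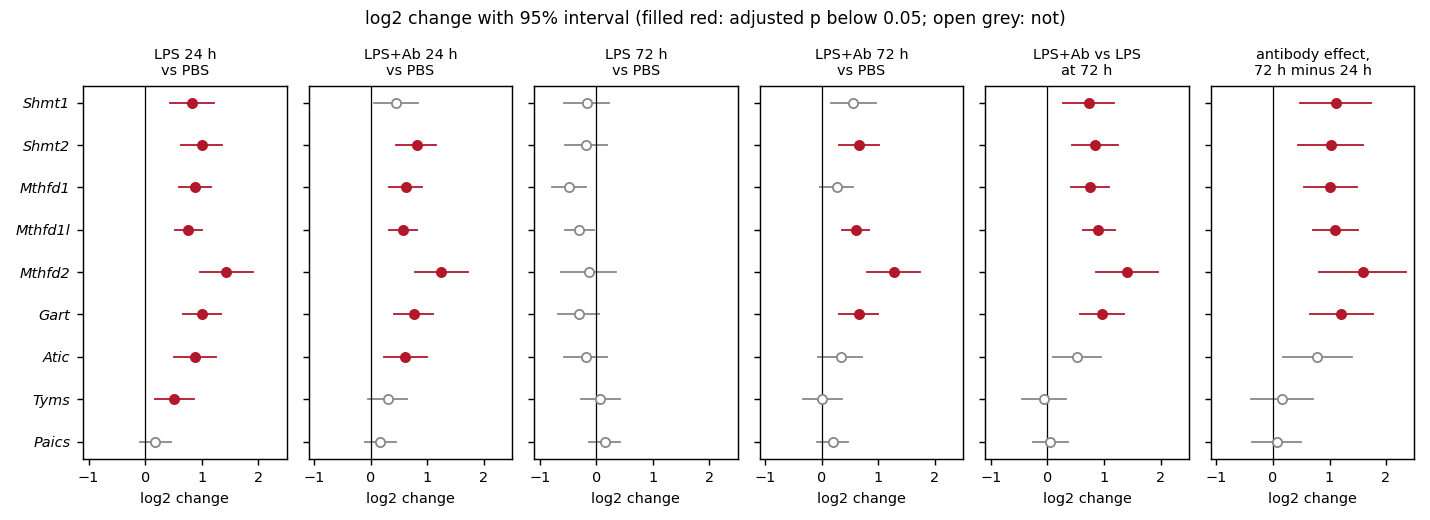
Change of each enzyme on the log2 scale (horizontal axis) in 6 comparisons, where LPS+Ab is LPS with anti-IL-10R. Points are estimates and bars 95% intervals from edgeR; filled red points have an adjusted p below 0.05, as for 8 of 9 enzymes at LPS 24 h, 0 at LPS 72 h and 6 for the antibody difference at 72 h.

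The antibody comparison at 72 h, between 2 groups of LPS-treated mice whose libraries share 1 style of name, called 6 of 9 members as higher: Shmt1, Shmt2, Mthfd1, Mthfd1l, Mthfd2 and Gart. It called 15.1% of all tested genes, 8.64% of all as higher, and the members' median was 0.75 against 0.01 for all genes. All antibody libraries lay above all LPS libraries for 7 members (those 6 and Atic), as for 17.1% of genes. Leaving out 1 library at a time gave 4 to 7 called members. At 24 h the same comparison called 0 of 9 members and 0 of 14920 genes by edgeR, with 0 members and 273 genes at an unadjusted p below 0.05. DESeq2 called 1 gene, no member, and voom 0. All 9 estimates at 24 h were negative, from -0.38 for Shmt1 to -0.02 for Paics, with intervals that reached 0.35 (Mthfd2).

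The difference between the antibody effects at 72 and 24 h was itself tested. It was called for 6 of 9 members, the same ones as at 72 h: 1.59 for Mthfd2 (SE 0.358, adjusted p = 0.0198), 1.21 for Gart, 1.11 for Shmt1, 1.10 for Mthfd1l, 1.02 for Shmt2 and 1.01 for Mthfd1. It was called for 6.35% of all tested genes, 4.03% of all as higher. Atic (0.78, adjusted p = 0.108), Tyms (0.16, adjusted p = 0.758) and Paics (0.07, adjusted p = 0.884) did not pass. This result was the least steady: 2 members were called without antibody 24 h library 3 and 1 without LPS 72 h library 1. Of 12 fits that each left out 1 library, the call was lost in 9 for Shmt1 (adjusted p up to 0.108), 8 for Shmt2 (up to 0.0945), 2 each for Mthfd1 and Mthfd2, 1 for Gart and 0 for Mthfd1l. With only the groups compared in the fit, Shmt1 (adjusted p = 0.0881) and Shmt2 (adjusted p = 0.0582) also missed the threshold. With only bracketed library names among the LPS libraries, Mthfd1l was still called (0.92, adjusted p = 0.0486), while Mthfd2 was at 1.36 (adjusted p = 0.0793).

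The 9 enzymes were also compared per kilobase of annotated exon, which allows levels of different genes to be set side by side. In PBS the order of mean levels was Paics at 141 CPM per kb, Shmt2 at 73.4, Gart at 47.2, Mthfd1 at 37.1, Mthfd1l at 26.5, Atic at 26.2, Shmt1 at 20.2, Tyms at 13.4 and Mthfd2 at 9.94 CPM per kb. The ranges of the neighbours overlapped for Gart and Mthfd1, Mthfd1 and Mthfd1l, Mthfd1l and Atic, and Atic and Shmt1, and for Tyms and Mthfd2. At LPS 24 h Shmt2 reached 146 ± 22.9 CPM per kb (SD, n = 3) beside 160 ± 5.24 for Paics (SD, n = 3), ranges that overlapped. Mthfd2, last in PBS, was at 26.9 CPM per kb and Tyms at 19.1. Mthfd2 also stood above Tyms in both antibody groups and below it at LPS 72 h, by mean level. Exonic length is the union over annotated isoforms, 7985 bases for Atic and 6089 bases for Tyms, so a level per kb is low where long isoforms are rare.

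Pairs of members were also compared within libraries. The plain ratio of counts does not depend on the scaling, whereas the log2 ratios that were tested are of scaled CPM plus 2 and do, most for the low Mthfd2. The ratio of Mthfd2 to Mthfd1 counts averaged 0.211 ± 0.0446 in PBS (SD, n = 5), 0.307 ± 0.0443 at LPS 24 h, 0.326 ± 0.0216 with the antibody at 24 h, 0.269 ± 0.027 at LPS 72 h and 0.422 ± 0.095 with the antibody at 72 h (SD, n = 3 each). The antibody group at 72 h differed from PBS by 0.96 on that log2 scale. The exact permutation test, two-sided, gave p = 0.0179, the smallest that 3 against 5 libraries allow, and 0.171 after adjustment over 24 such tests. Mthfd1l against Mthfd1 stood at 0.714 ± 0.0422 in PBS (SD, n = 5) and 0.904 ± 0.0494 with the antibody at 72 h (SD, n = 3), with the same exact p and adjusted p. Shmt2 against Shmt1 ranged from a mean of 2.91 at LPS 72 h to 3.88 with the antibody at 24 h, and every comparison overlapped. None of the 24 exact tests passed after adjustment, and 3 against 3 libraries cannot go below 0.1.

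**Figure D3:**
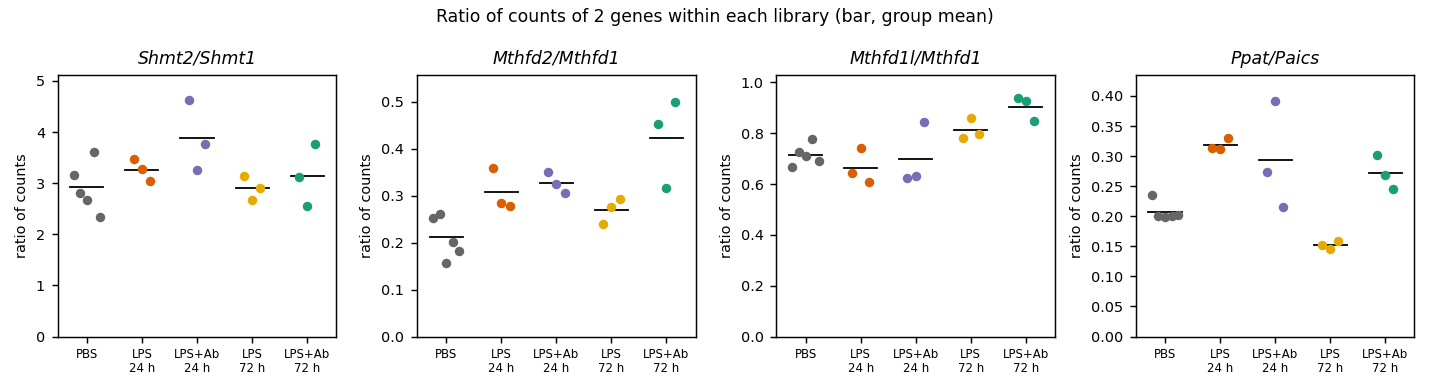
Ratio of the counts of 2 genes within each library (linear axis from 0), by group, where LPS+Ab is LPS with anti-IL-10R. Points are libraries and lines group means; Mthfd2/Mthfd1 lies at 0.157 to 0.26 in PBS and at 0.316 to 0.499 with the antibody at 72 h, and Ppat/Paics separates PBS, LPS 24 h, LPS 72 h and antibody 72 h.

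The rest of the pathway was taken from 6 lists with 60 genes in all, 59 of them tested (Gldc was not). At LPS 24 h 38 rose and 5 fell, with a median of 0.62, where 37.6% of all tested genes were called, 19.1% of all as higher, and their median was -0.03. Of 7 tested genes of serine and glycine supply 6 rose, with Slc1a4, a serine transporter, up by 1.23 (adjusted p = 0.00603), Psat1 by 1.20 (adjusted p = 0.000397) and Phgdh by 0.95 (adjusted p = 0.000719), the last pair being enzymes of serine synthesis. Amt, of the glycine cleavage system, fell by 0.84 (adjusted p = 0.0312) from a level near 2.1 CPM. Of 12 folate handling genes 5 rose and 2 fell. Slc19a1, the reduced folate carrier, rose by 1.15 (adjusted p = 0.000582), and Aldh1l1, which burns 10-formyl-folate, fell by 1.20 (adjusted p = 0.00406).

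In the other purine list 7 of 9 rose at LPS 24 h, among them Gmps, which makes GMP, by 0.96 (adjusted p = 0.000314), Ppat by 0.79 (adjusted p = 0.000487) and Impdh2 by 0.65 (adjusted p = 0.00262). In the pyrimidine and deoxynucleotide list 12 of 14 rose and 1 fell. Nme1, a nucleoside diphosphate kinase, rose by 1.20 (adjusted p = 0.00248), Rrm2, the S-phase subunit of ribonucleotide reductase, by 1.06 (adjusted p = 0.00408) and Cad, which starts pyrimidine synthesis, by 0.79 (adjusted p = 0.00952). Rrm2b, the p53-induced subunit, fell by 0.47 (adjusted p = 0.0427). Of 12 salvage genes 6 rose and 1 fell: Aprt, which salvages adenine, rose by 1.30 (adjusted p = 0.00109) and Tk2, the mitochondrial thymidine kinase, fell by 0.83 (adjusted p = 0.00263). Of 5 methionine cycle genes 2 rose, the larger rise being that of Ahcy (0.85, adjusted p = 0.00113).

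For the antibody difference at 72 h, 18 of the 59 genes were higher, 5 lower and 36 not called, with a median of 0.40 against 0.01 for all genes, of which 15.1% were called and 8.64% called higher. By list, 5 of 7 serine and glycine genes were higher and 1 lower, 4 of 12 folate genes were higher and 2 lower, and 5 of 9 purine genes were higher and 0 lower. In the pyrimidine list 2 of 14 were higher and 0 lower, in the salvage list 1 of 12 higher and 2 lower, and in the methionine list 1 of 5 higher and 0 lower; the pyrimidine and salvage counts are near the share over all genes. Slc1a4 went from 0.908 ± 0.027 CPM after LPS to 6.16 ± 1.36 CPM with the antibody (SD, n = 3 each), a log2 difference of 2.75 (adjusted p = 0.00125). Slc19a1 differed by 1.12 (adjusted p = 0.00407), Psat1 by 0.98 (adjusted p = 0.00327), Phgdh by 0.58 (adjusted p = 0.0421), Gmps by 0.93 (adjusted p = 0.00122), Ppat by 0.88 (adjusted p = 0.00157) and Cad by 1.13 (adjusted p = 0.00775). Impdh2 (0.29, adjusted p = 0.214) and Rrm2 (0.56, adjusted p = 0.175) did not pass. Aldh1l2, the mitochondrial relative of Aldh1l1, was called but lay near the detection limit, at 0 in 2 of 3 LPS 72 h libraries and at 1.22 ± 0.75 CPM with the antibody (SD, n = 3), so no fold is given. Aldh1l1 was lower with the antibody, at -1.16 (adjusted p = 0.0183). The direct test of the antibody effect at 72 against 24 h called 11 of the 59 as higher and 2 as lower, among them Slc1a4 (2.99, adjusted p = 0.00841) and Ctps, the maker of CTP (1.40, adjusted p = 0.0104). That test called 6.35% of all tested genes, 4.03% of all as higher, and for the members it was the least steady.

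**Figure D4:**
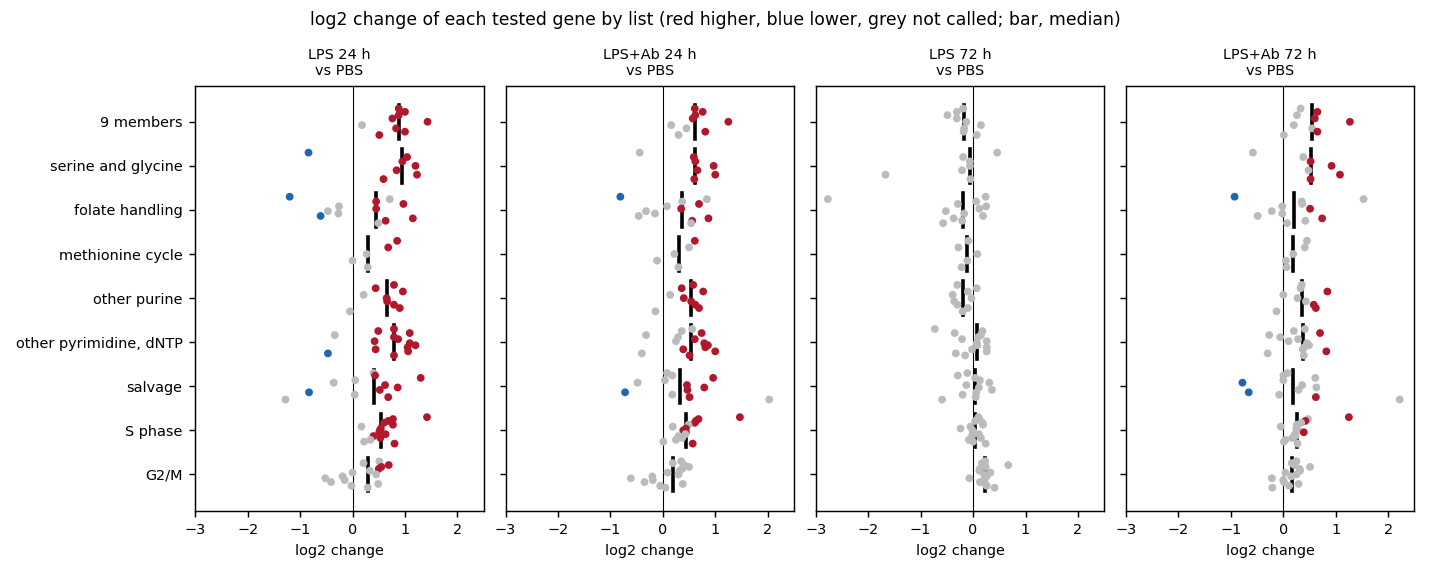
Change against PBS on the log2 scale (horizontal axis) of every tested gene of the 9 members, 6 pathway lists and 2 cell cycle lists in the 4 LPS groups. Each point is a gene, red if called higher, blue if called lower and grey if not called, with a bar at the median; 38 of 59 pathway genes are higher at LPS 24 h and none is called at LPS 72 h.

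At LPS 24 h 12 of 15 S phase genes rose (median 0.54). In the G2/M list 3 of 15 rose (median 0.29), near the 19.1% of all tested genes called higher. Ccne1, the cyclin of S phase entry, rose by 1.42 (adjusted p = 0.000666), while Mki67 was at -0.41 (adjusted p = 0.164). Summed S phase levels were 2910 to 3590 CPM in PBS, 4300 to 5280 at LPS 24 h, 3730 to 4840 with the antibody at 24 h, 3260 to 3530 at LPS 72 h and 3430 to 4410 with the antibody at 72 h. For the antibody difference at 72 h, 2 of 15 S phase genes (Mcm2 and Ccne1) and 0 of 15 G2/M genes were called, where 8.64% of all tested genes were called higher, and the list medians were 0.16 and -0.11. All G2/M sums lay between 2970 and 4620 CPM in these 2 groups. The part of cycling in the members' changes was not tested.

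Of 7 transcription factors known to act on such genes, 5 rose and 1 fell at LPS 24 h, where 19.1% of all tested genes were called higher. Myc was at 276 ± 29.8 CPM in PBS (SD, n = 5) and 409 ± 81 CPM at LPS 24 h (SD, n = 3), a rise of 0.57 (adjusted p = 0.034). Atf4 rose by 0.79 (adjusted p = 0.0105) and Atf5 by 0.89 (adjusted p = 0.00215), whereas Mycn fell by 1.79 (adjusted p = 0.0046). For the antibody difference at 72 h 2 of 7 were called, Myc at 0.69 (adjusted p = 0.0497) and Atf5 at 0.69 (adjusted p = 0.0406), and Atf4 was at 0.76 (adjusted p = 0.0516). In that comparison 8.64% of all tested genes were called higher. None of the 7 passed when the antibody effect at 72 h was tested against that at 24 h. Over all tested genes 6.35% were called in that test. From 24 to 72 h after LPS alone, Atf5 (-1.06, adjusted p = 0.00201), Atf4 (-0.94, adjusted p = 0.0102) and Myc (-0.88, adjusted p = 0.00869) were called lower. The other factors of the list were not called there, where 31.1% of all tested genes were called, 16.4% of all as lower.

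Markers of cell types also moved. Over all tested genes 37.6% were called at LPS 24 h, 19.1% of all as higher. For the antibody difference at 72 h these shares were 15.1% and 8.64%. At LPS 24 h 5 of 9 HSPC markers were called lower and 0 higher, the summed level going from 1650 to 2350 CPM in PBS to 1070 to 1190 CPM. Ly6a went the other way by level without being called, at 32.6 to 85.2 CPM in PBS and 108 to 222 CPM at LPS 24 h. At 72 h Ly6a was at 36.3 to 86.4 CPM after LPS and at 64.7 to 632 CPM with the antibody, ranges that overlapped. At the antibody difference at 72 h 1 of 9 was lower (Cd34, -0.78, adjusted p = 0.042), with sums of 1750 to 2240 CPM after LPS and 1190 to 1770 CPM with the antibody. Erythroid markers were uneven: 1 of 12 rose at LPS 24 h (Tfrc, 1.49, adjusted p = 0.00942), 1 fell, and 1 was higher at the antibody difference at 72 h (Tfrc, 1.55, adjusted p = 0.0377), where the median of the 12 was 1.73. Their sums were 597 to 937 CPM in PBS, 754 to 1700 at LPS 24 h, 280 to 2910 with the antibody at 24 h, 173 to 453 at LPS 72 h and 291 to 1770 with the antibody at 72 h. Tfrc, the transferrin receptor, is expressed by dividing cells of many types, and Klf1, the erythroid transcription factor, was at 5.47 to 16.5 CPM in PBS, 20.4 to 42 at LPS 24 h, 0.366 to 8.43 at LPS 72 h and 0.495 to 39.7 with the antibody at 72 h and was not called. Antibody 72 h library 3, whose erythroid sum of 291 CPM lay within the LPS 72 h range, had the highest level of its group for 8 of 9 members (all but Shmt1), and library 1, with the sum of 1770 CPM, had the lowest for 8 (all but Mthfd2). These are single libraries, and the part of erythroid cells in the members' changes was not tested.

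In the other marker lists no gene was called higher at LPS 24 h or for the antibody difference at 72 h. Monocyte-macrophage markers fell for 10 of 12 genes at LPS 24 h (sums of 769 to 3890 CPM in PBS and 436 to 788 CPM at LPS 24 h), with a median of -3.88. At the antibody difference at 72 h 1 of 12 was called, Csf1r as lower (-1.11, adjusted p = 0.0229), but the list median was 1.24. The macrophage genes C1qa (2.33), C1qb (2.83), C1qc (2.05), Vcam1 (2.49), Axl (2.17) and Mrc1 (1.60) had high estimates that did not pass, with adjusted p from 0.0982 (Axl) to 0.299 (Mrc1). Vcam1, for example, was at 7.15 to 7.68 CPM at LPS 72 h and at 4.1 to 110 CPM with the antibody, so the groups overlapped. Other uncalled genes of the list, Lyz2 (-1.28, adjusted p = 0.0841), Ly6c2 (-0.70), Adgre1 (-0.29) and Cd68 (-0.12), had negative estimates, and Cd14 was at 0.88. The summed level was 838 to 1480 CPM at LPS 72 h and 512 to 898 CPM with the antibody. B-lymphoid markers fell for 3 of 10 at LPS 24 h (400 to 1350 CPM in PBS, 74.8 to 101 CPM at LPS 24 h). T and NK markers fell for 3 of 11 (117 to 292 CPM in PBS, 110 to 276 CPM at LPS 24 h), and their sums overlapped. In that comparison 37.6% of all tested genes were called in either direction. At the antibody difference at 72 h 0 of 10 B-lymphoid markers and 1 of 11 T and NK markers were called, as lower. Neutrophil markers, which include primary granule genes of progenitors, were not called in either comparison for any of 9 tested genes, with sums of 2530 to 15100 CPM in PBS and 8850 to 17600 CPM at LPS 24 h. In both comparisons no marker was at 0 in all libraries of a group except Ly6g with the antibody at 72 h. From 24 to 72 h after LPS, 4 of 12 erythroid markers were lower (median -2.74). Higher were 4 of 9 HSPC, 3 of 11 T and NK, 2 of 12 monocyte-macrophage and 1 of 10 B-lymphoid markers, and 0 of 9 neutrophil markers were called. Over all tested genes 31.1% were called there, 16.4% of all as lower. The part of cell composition in the members' changes was not tested.

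Across the 17 libraries each member's profile, as log2 CPM minus its PBS mean, was set against the mean profile of the 9. Mthfd1l (0.113) and Atic (0.12) had the smallest root mean square distance on the log2 scale, and Mthfd2 (0.542), Paics (0.408) and Tyms (0.339) the largest, Mthfd2 by larger swings and Paics and Tyms by smaller ones. The mean profile was at 1.02, 0.71 and 0.76 in the LPS 24 h libraries, at -0.25, -0.08 and -0.17 at LPS 72 h, and at 0.27, 0.49 and 0.73 with the antibody at 72 h, PBS libraries lying between -0.18 and 0.19. Candidates for likeness were the 7451 tested genes outside the members whose mean log2 CPM was at or above the median of tested genes. Among these 7451 genes the nearest to the mean profile over 17 libraries were Ncbp1 (0.063), Nudcd1 (0.071), Nup93 (0.074), Eif4e (0.082) and Amd1 (0.082). The nearest to Mthfd2 were Ccne1 (0.206), Ldha (0.215) and Eif2b3 (0.241), those to Tyms were Ppp1ca (0.116), Rbbp4 (0.119) and Pdzd11 (0.121), and those to Shmt1 were Umps (0.137), Wdr36 (0.143) and Bzw2 (0.154). The profiles share libraries and scaling, so these distances are descriptions.

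Counts of some members may hold reads of overlapping or similar genes, since the use of strand in counting is not given in the sources used here. Annotated exons overlap on the opposite strand for Gart (Gm15964, 19.7% of its exonic bases), Paics (Ppat, 8.67%), Shmt1 (Smcr8, 4.74%), Shmt2 (Ndufa4l2, 1.03%) and Mthfd1 (Gm47525, 0.833%), and reads from such stretches cannot be told apart. A search for similar transcripts found 1 other gene each for Gart, Paics and Shmt1. These were the same overlapping genes, Gm15964, Ppat and Smcr8, so the search added no further gene for them. Tyms transcripts share stretches of at least 75 bases at 95% identity or more with transcripts of 37 other genes, including the pseudogene Tyms-ps (154 bases at 98.701%).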

How the data were processed

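Raw counts per gene were used as the authors deposited them, 1 table for 17 mouse HSPC libraries. Per the submitters' processing notes the work used GRCm38, HISAT2 2.2.0, Subread, featureCounts 2.1.1, R 4.3.2 and DESeq2, with no role given; annotation, strand use and filters are not given in the sources used here. No library pair of 136 held identical values and 0 columns were left unmapped. The members and gene lists were chosen with earlier results of these data known.

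Genes were filtered with filterByExpr (minimum count 10, minimum total 15), which kept 14920 of 35321 genes and 99.9% of counts. With R 4.3.3 and edgeR 4.0.16, TMM factors and 1 quasi-likelihood fit of group means over 17 libraries gave log2 changes, whose SE is the change divided by the square root of F. Benjamini-Hochberg adjustment ran over all tested genes in each comparison. The code was tested on simulated data. Alternatives were RLE and upper-quartile factors, DESeq2 1.42.0, limma 3.58.1 (voom with sample quality weights), 2 filters, only the groups compared, the replicate number as a block, leaving out each library and, added after seeing the data, leaving out both 24 h libraries numbered 1. Same-numbered libraries of PBS and LPS 24 h deviated together (r = 0.191, 0.188 and 0.158 across genes, each above 0.1), so the block is given there beside the 1 call it changed. Named were the members, the largest called rise and fall of each list in a comparison, the genes Ppat, Phgdh, Psat1, Rrm2, Cad, Impdh2, Myc, Atf4 and Mki67, and the nearest profiles; 1 other gene of this rule is not reported here. A gene named for 1 comparison is followed in others, as is Tk2 after its values were seen. Mcm2, Klf1 and the monocyte-macrophage genes other than Csf1r were also named after their values were seen. Positions are from GENCODE M21 (GRCm38) and promoter windows from RefSeq (GRCm38.p6). Similar transcripts were found with blastn 2.17.0.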

Additional observations from a re-analysis of the deposited data

Results flagged for a closer look

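For 6 members the effect of the antibody differed between the time points by edgeR's test of the difference itself, as log2 change at 72 h minus that at 24 h: Mthfd2 at 1.59 (adjusted p = 0.0198), Gart at 1.21 (adjusted p = 0.0157), Shmt1 at 1.11 (adjusted p = 0.0403), Mthfd1l at 1.10 (adjusted p = 0.00831), Shmt2 at 1.02 (adjusted p = 0.0375) and Mthfd1 at 1.01 (adjusted p = 0.0162). For each of them the estimate was negative at 24 h, where none was called, and positive at 72 h, where all 6 were. The calls for Shmt1 and Shmt2 were lost in 9 and 8 of 12 fits that each left out 1 library. In the PBS group, the only one with over 3 libraries, no member had a library that stood apart by Dixon's 95% criterion.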

How the results depend on the processing

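Of 37 called member changes, 603 values under alternatives gave 546 calls in the same direction, 57 in the same direction that missed the threshold and 0 reversals. Depth was not limiting for the members, the lowest of which, Mthfd2, was at 24.9 CPM or more; 3 libraries a group limit the precision. Called members for LPS 72 h against PBS were 1 with voom; for the antibody at 72 h against PBS, 2 with the replicate block; for the antibody effect at 72 against 24 h, 1 with the replicate block and 1 with bracketed library names only; the causes were not tested. Over all genes that last comparison called 947 genes, 333 with the block, 127 with bracketed names, 286 with only the groups compared, 1709 with DESeq2, 1585 with voom and 617 with no filter. Other counts over all genes that moved by over 1.5 times were 3605 to 1721 and 1975 to 374 with the block for the antibody at 24 and 72 h against PBS, 2256 to 1123 with only the groups compared and 4433 with voom for the antibody effect at 72 h, 1975 to 3053 with voom for the antibody at 72 h against PBS, 3098, 1877, 1083 and 2884 among the upper part by expression, where fewer genes were tested, for LPS 24 h (5616) and the antibody at 24 and 72 h against PBS and for LPS 72 against 24 h (4646), and 3 to 178 (DESeq2), 2170 (voom), 99 (only the groups compared) and 0 (block) for LPS 72 h. Without 1 library at a time the counts of called members ranged from 3 to 7 for the antibody at 24 h against PBS, 2 to 4 for it at 72 h and 1 to 7 for the antibody effect at 72 against 24 h.

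Replicate numbers paired libraries by no label; outside LPS 24 h against PBS not all same-numbered pairs had r above 0.1 (mean r -0.152 for the antibody effect at 24 h; 0.723, -0.022 and 0.697 from 24 to 72 h with the antibody; own number best for 3 of 3 only for the antibody at 72 h against PBS). Under the replicate block these calls missed the threshold: Atic for the antibody at 24 h against PBS (adjusted p = 0.073), Shmt2 (0.0654) and Gart (0.0813) for it at 72 h, Shmt1 for the antibody effect at 72 h (0.0502), and Shmt1 (0.0686), Shmt2 (0.0804), Mthfd1 (0.0575), Mthfd2 (0.0578) and Gart (0.0534) for 72 against 24 h.

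Reversed values were all of changes that were not called. For Tyms with the antibody at 72 h against PBS they were -0.089 (upper-quartile factors), -0.02 (voom), -0.11 (upper part by expression) and -0.019 (only the groups compared). For Paics they were, in the order upper-quartile, voom and upper part, -0.032, -0.035 and -0.059 for the antibody effect at 72 h, 0.086, 0.048 and 0.12 for LPS 72 against 24 h, and -0.038, -0.023 and -0.082 for the antibody effect at 72 against 24 h; for the antibody effect at 24 h, 0.005 (upper-quartile), 0.023 (upper part) and 0.006 (only the groups compared). Voom also gave 0.011 for Mthfd2 for the antibody effect at 24 h, -0.25 for Mthfd2 from 24 to 72 h with the antibody and -0.093 for Tyms for 72 against 24 h. Bracketed names gave 0.079 (Shmt2), 0.034 (Mthfd2), 0.12 (Tyms), 0.11 (Paics) and 0.035 (Atic) for the antibody effect at 24 h, -0.13 (Shmt1), -0.062 (Mthfd1l) and -0.077 (Paics) from 24 to 72 h with the antibody, and -0.2 (Tyms) and -0.076 (Paics) for 72 against 24 h. Upper-quartile factors moved the median of all genes by over 0.1, to -0.16 at LPS 24 h, -0.11 and -0.1 for the antibody at 24 and 72 h, and 0.13 for LPS 72 against 24 h.

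Without 1 library at a time, signs changed within these ranges: for the antibody effect at 24 h, Mthfd2 -0.32 to 0.064, Tyms -0.39 to 0.016 and Paics -0.19 to 0.086; at 72 h, Tyms -0.25 to 0.11 and Paics -0.062 to 0.17; for 72 against 24 h, Tyms -0.094 to 0.31 and Paics -0.047 to 0.23. From 24 to 72 h with the antibody they were Shmt1 -0.12 to 0.34, Mthfd1l -0.052 to 0.1, Gart -0.29 to 0.12, Mthfd2 -0.24 to 0.18 and Paics -0.08 to 0.21. Against PBS, Tyms was at -0.001 to 0.14 for LPS 72 h and -0.18 to 0.16 for the antibody at 72 h. Log2 ratios ranged, for Shmt2/Shmt1, from -0.068 to 0.086 (LPS 72 h), -0.025 to 0.25 (antibody 72 h) and -0.031 to 0.25 (antibody effect at 72 h), and for Mthfd1l/Mthfd1 from -0.19 to 0.029 (antibody 24 h) and -0.074 to 0.15 (antibody effect at 24 h).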

Other observations

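Dguok and Tk2, the kinases that salvage deoxynucleosides inside mitochondria, ran against the members; this pair was chosen after its values were seen. Tk2 was at 29.5 ± 4.47 CPM in PBS (SD, n = 5), 16.5 ± 1.89 at LPS 24 h, 30.8 ± 7.96 at LPS 72 h and 18.6 ± 2.5 with the antibody at 72 h (SD, n = 3 each). Dguok was at 29.2 ± 2.59 CPM in PBS (SD, n = 5), 22.7 ± 5.42 at LPS 24 h, 36.2 ± 5.56 at LPS 72 h and 17 ± 3.56 with the antibody at 72 h (SD, n = 3 each). For the antibody difference at 72 h, edgeR gave -1.09 for Dguok (adjusted p = 0.00301) and -0.73 for Tk2 (adjusted p = 0.0214). At LPS 24 h Tk2 fell by 0.83 (adjusted p = 0.00263) and Dguok was at -0.36 (adjusted p = 0.108).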
